A study of Drosophila melanogaster with 24 samples.

Results

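Thoraces of the fly Drosophila melanogaster with muscle knockdown of the bZIP gene CG6272 were set against thoraces with muscle knockdown of a proteasome subunit. The samples were 9 of the 24 RNA sequencing libraries of the series, all from thoraces of 10-day-old males. The tested flies carried Mhc>CG6272RNAi (3 libraries). They were compared with the mean of Mhc>ProsB1RNAi (3 libraries) and Mhc>ProsB5RNAi (3 libraries), which target Prosbeta1 and Prosbeta5, and a difference also had to have the same sign against each of these groups alone. Thoraces with Mhc>GFPRNAi (3 libraries) and Mhc>whiteRNAi (3 libraries) gave control levels, described here without a test. In each group the Mhc driver, from the muscle myosin heavy chain gene, expressed 1 RNAi transgene in muscle, so the other cells of the thorax kept the targeted gene. No group combined the knockdown of CG6272 with that of a proteasome subunit. The CG6272 libraries are titled in a different way from the remaining thoraces, so library batch and genotype cannot be told apart in any difference below. The labels call the 3 libraries of a group biological replicates.

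The proteasome degrades proteins tagged with ubiquitin. Its 20S core holds the catalytic sites, among them those of Prosbeta1 and Prosbeta5, and its 19S particle recognises, unfolds and feeds in the substrate. When it is impaired, cells are known to raise proteasome subunit genes and cytosolic chaperones. CG6272, now named Irbp18, is a C/EBP-family bZIP protein that dimerises with Xrp1, a bZIP factor of fly stress responses.

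Libraries held 69.02, 34.76 and 79.16 M reads in genes for CG6272 RNAi, 32.09 to 36.07 M for ProsB1 and ProsB5 RNAi and 30.97 to 32.88 M for the controls. Levels are given as CPM (counts scaled to library size) after TMM scaling, and fold changes as log2 of CG6272 RNAi over the proteasome mean, with the standard error (SE). CG6272 replicate 2 stood apart. In it, 19.2% of 7265 genes of at least 10 CPM lay over 1.5-fold from the mean of its 2 fellow libraries, against 4.58% and 9.57% in CG6272 replicates 1 and 3, 0.633 to 4.01% in the proteasome libraries and 0.262 to 3.51% in the controls. Its differences followed transcript length, with a median of 0.445 (log2) for genes with under 1 kb of exons and -0.447 for those with over 3 kb. Counts of genes that moved by over 1.5 times without it are given beside the results. The muscle label held in each library: Mhc, the muscle myosin gene, was at 3983 to 4752 CPM in CG6272 RNAi, 3655 to 4403 CPM in proteasome RNAi and 4260.1 to 5951 CPM in controls.

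Of 10658 genes tested, 766 were higher in CG6272 RNAi than in the proteasome mean (7.19%) and 370 were lower (3.47%), at an adjusted p under 0.05 in edgeR's quasi-likelihood test and with the same sign against each proteasome group. Under the stricter rule that each proteasome group alone had to pass, 103 genes were higher (0.966%) and 59 lower (0.554%). Most differences were small: 62 of the higher and 71 of the lower genes reached 2-fold. Without CG6272 replicate 2, 834 of 10884 genes were higher (7.66%) and 633 lower (5.82%). Of the genes called with all 9 libraries, 631 higher and 282 lower ones were also called without that library, as were all 103 and 59 of the stricter rule. The proportion of higher calls depended on the scaling. Upper quartile scaling moved the median log2 fold change of all genes by 0.11 and gave 1169 higher genes (11%) and 243 lower ones (2.28%). Removing each library's length trend gave 1062 higher (10.1%) and 867 lower ones (8.25%). Any of the 6 proteasome libraries left out cut both counts by over 1.5 times, to between 76 and 257 higher and between 61 and 135 lower genes, the lowest without ProsB1 replicate 3. Without CG6272 replicate 1 the counts were 411 and 170, and without CG6272 replicate 3 they were 1288 and 794.

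Set beside the range of the 6 control libraries, the differences were of several kinds. The CG6272 means used for this, here and for the lists below, include replicate 2. The share of all tested genes outside the control range was not counted. Of the 766 higher genes, 402 had a CG6272 mean outside the control range and a proteasome mean inside it, 180 had the means outside on opposite sides, and 86 had only the proteasome mean outside. Of the 370 lower genes these numbers were 124, 94 and 79. A gene lower in CG6272 RNAi than in proteasome RNAi may thus lie at the control level, as pirk did, or below it, as Hsp27 did.

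The targeted gene followed its labels. CG6272 had 14.6, 15.1 and 13.5 CPM in CG6272 RNAi, against 25.0, 31.4 and 30.0 CPM in ProsB1 RNAi, 27.9, 30.1 and 29.0 CPM in ProsB5 RNAi and 26.5 to 29.5 CPM in controls. The groups did not overlap, and the log2 fold change was -1.0 ± 0.09 (SE; adjusted p = 0.00278). Since the driver acts in muscle only, what the other cells of the thorax contribute to the remaining CG6272 reads is unknown. Its partner gene Xrp1 had 821, 727 and 918 CPM in CG6272 RNAi, against 1042, 1032 and 1078 CPM in ProsB1 RNAi, 1117, 1094 and 1131 CPM in ProsB5 RNAi and 824 to 1095 CPM in controls. That is a log2 fold change of -0.40 ± 0.09 (adjusted p = 0.0287), again without overlap. Of 21 tested bZIP and related factors 3 were lower and 1 higher, beside 3.47% and 7.19% of all genes. The lower ones were CG6272, Xrp1 and CrebA, a factor of the secretory pathway. The higher one was maf-S, the small partner of cap'n'collar. With the length trend removed 2 were lower and 2 higher, where 8.25% and 10.1% of all genes were. Xrp1 and CrebA have 4826 and 4498 bases of exons, and log2 fold changes of -0.32 and -0.57 without CG6272 replicate 2. Over the 3268 tested genes with over 3 kb of exons the median was -0.18 (-0.05 without that library).

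The heat shock genes held the largest falls. Of 24 tested heat shock and cytosolic chaperone genes 11 were lower and 3 higher in CG6272 RNAi, beside 3.47% and 7.19% of all genes. With CG6272 replicate 2 left out the counts were 10 and 3. Of the 11 lower genes 7 passed against each proteasome group, and these were Hsp27 and the 6 Hsp70 genes. The 6 Hsp70 genes, which encode the main stress-induced Hsp70, are near-identical copies whose reads are hard to assign. They are therefore not separate observations in the counts above, and their CPM were summed. The sum was 18.1, 21.7 and 21.7 CPM in CG6272 RNAi, against 204, 744 and 261 CPM in ProsB1 RNAi, 219, 1070.3 and 949.6 CPM in ProsB5 RNAi and 39.9 to 262 CPM in controls. Every CG6272 library thus lay below every proteasome and every control library, while the proteasome libraries spread widely among themselves. Taken singly, Hsp70Aa, Hsp70Ab, Hsp70Ba, Hsp70Bb, Hsp70Bbb and Hsp70Bc had log2 fold changes between -5.48 ± 0.70 for Hsp70Aa (adjusted p = 0.00847) and -3.94 for Hsp70Bb (adjusted p = 0.0171).

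Small heat shock proteins hold unfolded proteins in solution. Hsp27 had 1.98, 2.28 and 2.23 CPM in CG6272 RNAi, against 17.2, 45.7 and 30.8 CPM in ProsB1 RNAi, 27.3, 76.6 and 81.1 CPM in ProsB5 RNAi and 3.69 to 14.3 CPM in controls (log2 fold change -4.35 ± 0.48, adjusted p = 0.00467). Again the CG6272 libraries lay below all others. Hsp26 had 24.6, 30.5 and 23.5 CPM in CG6272 RNAi, against 53, 125 and 83.9 CPM in ProsB1 RNAi and 96.5, 257 and 206 CPM in ProsB5 RNAi, with controls at 33.1 to 68.3 CPM (-2.29 ± 0.37, adjusted p = 0.0151). Hsp68, a further stress-induced Hsp70-family gene, was 12.6, 16.3 and 19.4 CPM in CG6272 RNAi, against 31.6, 96.8 and 37.7 CPM in ProsB1 RNAi, 48.3, 134 and 108 CPM in ProsB5 RNAi and 18.9 to 46.6 CPM in controls (-2.18 ± 0.45, adjusted p = 0.026).

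Hsp23 differed from these. It had 7.32, 9.03 and 6.84 CPM in CG6272 RNAi, against 8.40, 12.5 and 12.5 CPM in ProsB1 RNAi, 62.1, 198 and 58.9 CPM in ProsB5 RNAi and 4.44 to 16.6 CPM in controls. It was called lower against the mean (-2.16 ± 0.42, adjusted p = 0.0226). Its log2 fold change was -3.79 against ProsB5 RNAi and -0.53 against ProsB1 RNAi, whose difference was not tested. Hsp83, the fly Hsp90, had 555, 523 and 664 CPM in CG6272 RNAi, against 1031, 989.6 and 949 CPM in ProsB1 RNAi, 738, 1245 and 823 CPM in ProsB5 RNAi and 562 to 1367 CPM in controls (-0.73 ± 0.17, adjusted p = 0.0331). It was not called without CG6272 replicate 2 (adjusted p = 0.0599). The 3 higher members were Hsp67Ba, CG13133 and Hsc70-1, with log2 fold changes of 0.47, 0.62 and 0.53. Hsc70-4, the constitutive Hsp70 of the cytosol, and Hsf, the factor that switches on heat shock genes, had log2 fold changes of -0.11 each and were not called.

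**Figure D1:**
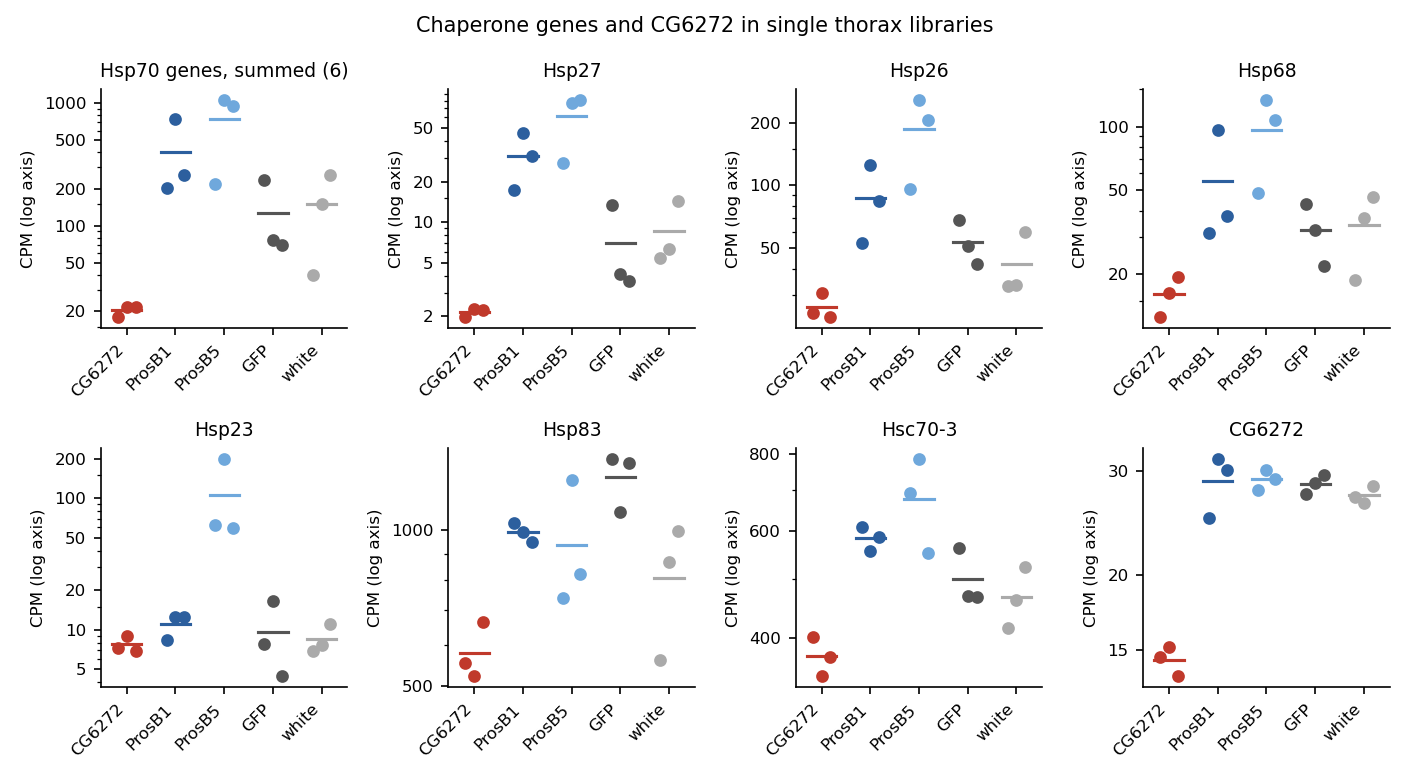
CPM of chaperone genes and CG6272 in each of 15 thorax libraries, on log axes that differ between panels; points are libraries, short lines are means of 3 libraries, and groups run from CG6272 RNAi through ProsB1 and ProsB5 RNAi to the GFP and white RNAi controls. The summed Hsp70 level was 18.1 to 21.7 CPM in the CG6272 libraries, below the lowest proteasome library at 204 CPM.

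Among 23 endoplasmic reticulum chaperones and unfolded protein response genes, 3 were lower and 0 higher, beside 3.47% and 7.19% of all genes. The counts were 4 and 0 without CG6272 replicate 2 and 2 and 0 with upper quartile scaling. With the length trend removed they were 11 and 0 of 22, where 8.25% of all genes were lower. Hsc70-3, the fly BiP, had 402, 347 and 373 CPM in CG6272 RNAi, against 607, 556 and 586 CPM in ProsB1 RNAi, 691, 785 and 551 CPM in ProsB5 RNAi and 416 to 562 CPM in controls, without overlap (-0.75 ± 0.12, adjusted p = 0.0144). The lectin chaperone gene Cnx99A and PEK, the fly PERK kinase gene, had log2 fold changes of -0.35 and -0.39. All 23 log2 fold changes were below 0, with a median of -0.21 (-0.10 with upper quartile scaling) against -0.01 over all genes.

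The 18 genes of the 19S particle had a median log2 fold change of 0.04 against ProsB1 RNAi and -0.64 against ProsB5 RNAi, a difference that was not tested. Against the mean, 6 were lower and 0 higher, beside 3.47% and 7.19% of all genes. The counts were 11 and 0 without CG6272 replicate 2, 13 and 0 with the length trend removed and 1 and 0 with upper quartile scaling. The shares of all genes called lower in these fits were 5.82%, 8.25% and 2.28%. None passed against each group. Rpn2, a scaffold subunit, had 138, 140.3 and 124 CPM in CG6272 RNAi, against 163, 163 and 168 CPM in ProsB1 RNAi, 211, 287 and 230.5 CPM in ProsB5 RNAi and 161 to 188 CPM in controls (-0.58 ± 0.11, adjusted p = 0.0199). Its CG6272 libraries lay below all others. Rpn1 (log2 fold change -0.52) and Tbp-1, the ATPase subunit Rpt5 (-0.51), followed. The CG6272 mean lay below the control range for 8 of the 18 genes, and the share over all tested genes was not counted. The ProsB5 mean lay above that range for 18 and the ProsB1 mean for 0, with the ProsB1 mean below it for 12, so the mean of both groups describes neither.

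The 14 genes of the 20S core had a median of 0.24 against ProsB1 RNAi and -0.57 against ProsB5 RNAi, again without a test of the difference. Of these only Prosbeta5 was called against the mean, as higher, beside 7.19% of all genes. Without CG6272 replicate 2 the counts were 1 higher and 2 lower, and with the length trend removed 1 and 6. In those fits 5.82% and 8.25% of all genes were lower. The list holds both knocked-down subunits, each lowered by its own RNAi. Prosbeta1 had 79.2, 102 and 67.4 CPM in CG6272 RNAi, against 45.2, 39.7 and 41.8 CPM in ProsB1 RNAi, 104, 144 and 108 CPM in ProsB5 RNAi and 73.5 to 87.7 CPM in controls. Its log2 fold change was thus 0.97 against ProsB1 RNAi and -0.52 against ProsB5 RNAi, and 0.23 against the mean (adjusted p = 0.301). Prosbeta5 had 133, 181 and 126 CPM in CG6272 RNAi, against 113, 122 and 124 CPM in ProsB1 RNAi, 64.9, 72.0 and 69.3 CPM in ProsB5 RNAi and 134 to 156 CPM in controls (0.69 ± 0.12, adjusted p = 0.016). Each subunit was lowest in the group that targeted it.

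Rpt6R, a paralogue of the ATPase subunit Rpt6, had 0.131, 0.270 and 0.165 CPM in CG6272 RNAi, against 0.585, 0.227 and 0.250 CPM in ProsB1 RNAi, 4.73, 11 and 4.67 CPM in ProsB5 RNAi and 0.172 to 1.06 CPM in controls. It was called lower (-3.11 ± 0.49, adjusted p = 0.015), although its CG6272 and ProsB1 libraries overlapped. Of the 14 paralogues 10 were too low to be tested. Among 19 p97 and ubiquitin factors 1 was called lower and 0 higher, beside 3.47% and 7.19% of all genes. The counts were 5 and 0 without CG6272 replicate 2 and 4 and 0 of 18 with the length trend removed. In those fits 5.82% and 8.25% of all genes were lower. The lower gene with all 9 libraries was the p97 gene TER94, whose product extracts ubiquitylated proteins from complexes. It had 302, 285 and 273 CPM in CG6272 RNAi, against 333, 323 and 336 CPM in ProsB1 RNAi, 461, 512 and 437 CPM in ProsB5 RNAi and 321 to 394 CPM in controls (-0.46 ± 0.08, adjusted p = 0.0168). Its log2 fold change was -0.20 against ProsB1 RNAi and -0.71 against ProsB5 RNAi.

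**Figure D2:**
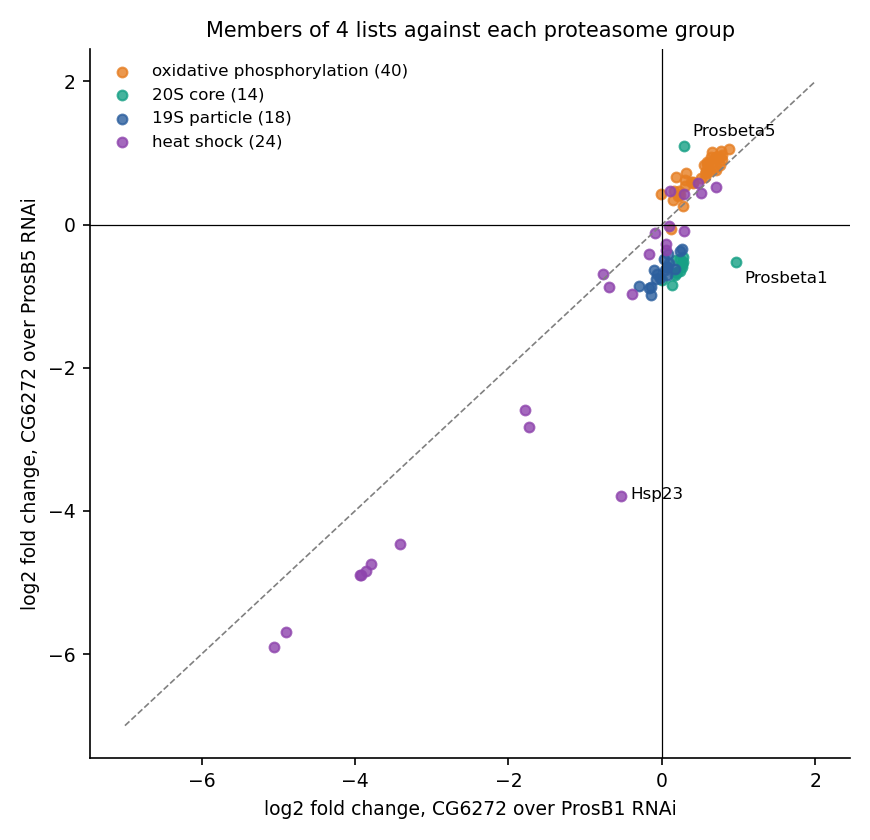
Log2 fold change of CG6272 RNAi over ProsB1 RNAi (horizontal axis) and over ProsB5 RNAi (vertical axis) for the tested members of 4 gene lists, with a dashed line of equality; both axes share the CG6272 libraries. The 19S genes lay near a median of 0.04 on the horizontal and -0.64 on the vertical axis, whereas Hsp70 and Hsp27 genes were below 0 on both.

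Amyrel, a gene related to amylases, was nearly absent from controls, with 0 to 0.190 CPM. It had 5.27, 3.15 and 2.80 CPM in CG6272 RNAi, against 23.7, 6.32 and 20.1 CPM in ProsB1 RNAi and 36.6, 15.6 and 15.3 CPM in ProsB5 RNAi. All 9 knockdown libraries were above all controls, and the CG6272 libraries were below all proteasome libraries (-2.37 ± 0.50, adjusted p = 0.0271). The call was lost without CG6272 replicate 2 (-2.27, adjusted p = 0.0522), within a range of 1.08e-06 to 0.0707 over 21 alternatives. The maltase gene Mal-A2 had 92.4, 67.7 and 109 CPM in CG6272 RNAi, against 195, 113 and 183 CPM in ProsB1 RNAi, 241, 149 and 161 CPM in ProsB5 RNAi and 19.6 to 55.9 CPM in controls (-0.95 ± 0.24, adjusted p = 0.0403), and was not called without that library either. Of 16 amylase, maltase and trehalose transport genes these 2 were lower and 0 higher, beside 3.47% and 7.19% of all genes. Their median log2 fold change was -0.78 over the 16 genes. Most maltases are gut enzymes, and the summed gut markers ranged from 4442 to 9612 CPM in CG6272 libraries, 6121 to 11586 CPM in proteasome libraries and 8402 to 10343 CPM in controls. Their part in the maltase values was not tested.

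Of 40 tested nuclear genes of oxidative phosphorylation 26 were called higher and 0 lower, against 7.19% of all genes (25 higher without CG6272 replicate 2, 27 of 39 with the length trend removed). The median log2 fold change was 0.66, and 0.41 without that library and 0.39 with the length trend removed. The CG6272 mean, with replicate 2 included, lay above the control range in 27 of the 40 genes and the proteasome mean lay below it in 28. The shares over all tested genes were not counted. None passed against each group alone. The gene levy, a cytochrome c oxidase subunit, had 931, 1165 and 717 CPM in CG6272 RNAi, against 629, 596 and 566 CPM in ProsB1 RNAi, 453, 456 and 488 CPM in ProsB5 RNAi and 542 to 723 CPM in controls (0.83 ± 0.13, adjusted p = 0.015). ND23, a complex I subunit, had 1079, 1442 and 885 CPM in CG6272 RNAi, against 714, 719 and 655 CPM in ProsB1 RNAi, 548, 589 and 632 CPM in ProsB5 RNAi and 648 to 725 CPM in controls (0.83 ± 0.14, adjusted p = 0.0159). CoIV, a further oxidase subunit, had a log2 fold change of 0.82 (adjusted p = 0.0173). In levy, ND23 and CoIV the CG6272 and proteasome libraries did not overlap, and replicate 2 was the highest of the CG6272 libraries. The 13 transcripts of the mitochondrial genome are listed at 0 in every library and could not be compared.

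Of 86 tested cytosolic ribosomal protein genes 30 were higher and 1 lower (30 and 1 without CG6272 replicate 2, 26 and 1 with the length trend removed, 51 and 1 with upper quartile scaling), against 7.19% and 3.47% of all genes. The median log2 fold change was 0.36 (0.21 without that library, 0.15 with the length trend removed). The CG6272 mean, with replicate 2 included, was above the control range in 82 of the 86 and the proteasome mean in 0. The share over all tested genes was not counted. RpL35A, of the large subunit, had 545, 722 and 580.1 CPM in CG6272 RNAi, against 395, 368 and 356 CPM in ProsB1 RNAi, 441, 388 and 416 CPM in ProsB5 RNAi and 305 to 413 CPM in controls (0.65 ± 0.10, adjusted p = 0.0144). It, RpL22 and RpLP1, with log2 fold changes of 0.67 and 0.61, passed against each proteasome group. The lower gene was RpS10a, at 0 to 0.0600 CPM in CG6272 RNAi and 0.0850 to 1.02 CPM in proteasome RNAi. RpS10a was chosen for mention after its values were seen.

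Of 71 tested mitochondrial ribosomal protein genes 28 were higher and 0 lower, against 7.19% and 3.47% of all genes. Without CG6272 replicate 2, 25 were higher, where 7.66% of all genes were. With the length trend removed 24 were higher, against 10.1% of all genes. The median log2 fold change was 0.40 (0.19 without that library, 0.18 with the length trend removed). The CG6272 mean, with replicate 2 included, was above the control range in 66, and the share over all tested genes was not counted. The gene mRpL41 had 38.2, 54.2 and 33.2 CPM in CG6272 RNAi, against 24.4, 24.8 and 25.1 CPM in ProsB1 RNAi, 21.7, 24.7 and 22.7 CPM in ProsB5 RNAi and 24.3 to 32.5 CPM in controls (0.81 ± 0.14, adjusted p = 0.0166). The genes mRpL23 (0.79) and mRpS33 (0.80) had similar log2 fold changes. The median exonic length was 906 bases for the oxidative phosphorylation genes, 916 for the cytosolic and 783 for the mitochondrial ribosomal protein genes, against 2043 over all tested genes. Short transcripts are the class that was raised in CG6272 replicate 2, and among the 1764 tested genes with under 1 kb of exons the median log2 fold change was 0.22 (0.08 without that library).

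**Figure D3:**
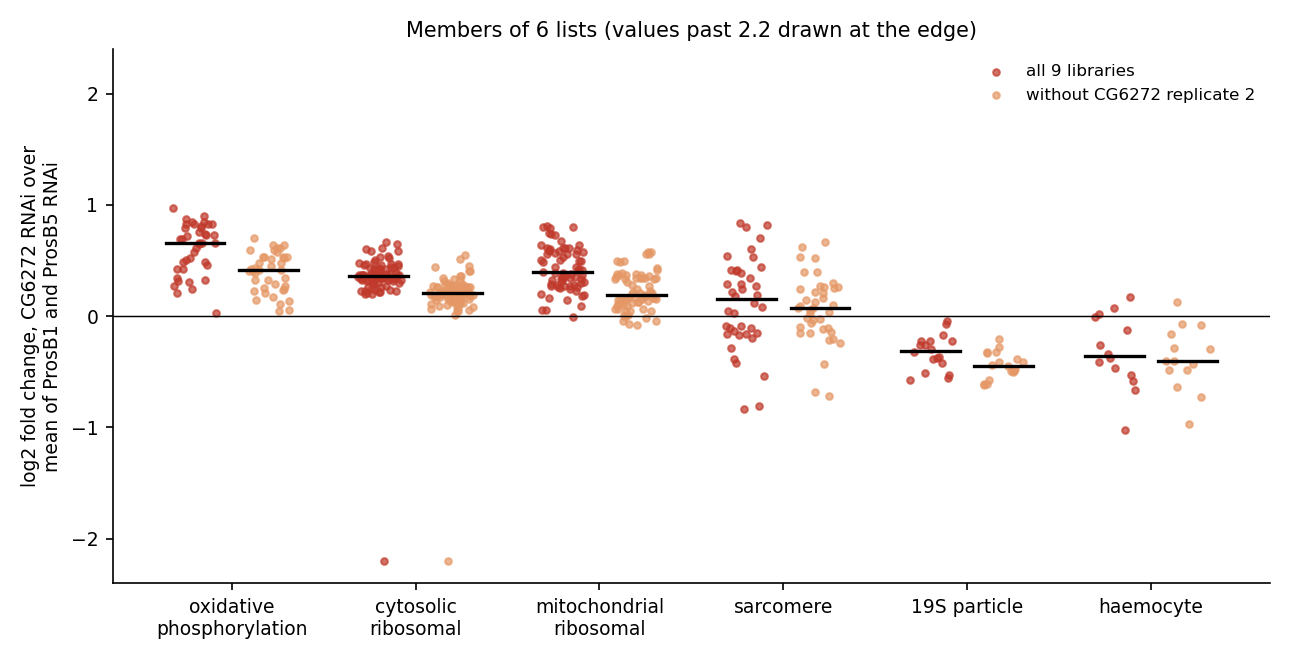
Log2 fold change of each tested member of 6 gene lists, with all 9 libraries (left column of each pair) and without CG6272 replicate 2 (right column); horizontal lines are medians. The oxidative phosphorylation median was 0.66 with and 0.41 without that library, and the haemocyte median was below 0 in both; the ribosomal protein gene RpS10a, at -3.31, is drawn at the lower edge.

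Of 40 tested sarcomere genes 9 were higher and 1 lower (22.5% and 2.5%), against 7.19% and 3.47% of all genes. The median log2 fold change was 0.15 (0.08 without CG6272 replicate 2, 0.32 with the length trend removed). Mp20, a muscle calponin-like gene, had 546, 736 and 559.8 CPM in CG6272 RNAi, against 433, 423 and 403 CPM in ProsB1 RNAi, 405, 420.1 and 440.5 CPM in ProsB5 RNAi and 444 to 604 CPM in controls (0.55 ± 0.10, adjusted p = 0.0213), and was the only one to pass against each group. TpnC25D, a troponin C gene, had a log2 fold change of 0.82. Fhos, a formin that builds thin filaments, was the lower member, with 793, 563 and 661 CPM in CG6272 RNAi, against 1342, 1414 and 1424 CPM in ProsB1 RNAi, 800.0, 1140.5 and 1139 CPM in ProsB5 RNAi and 1493 to 2041 CPM in controls (-0.83 ± 0.15, adjusted p = 0.0182). Fhos has 10218 bases of exons, and its log2 fold change was -0.72 without CG6272 replicate 2. Among 23 genes of glycolysis and glycogen 5 were higher and 1 lower (21.7% and 4.35%). The higher ones included Pgk (0.57), Gapdh1 (0.63) and Gpdh (0.50), and the lower one was Pepck (-0.38).

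**Figure D4:**
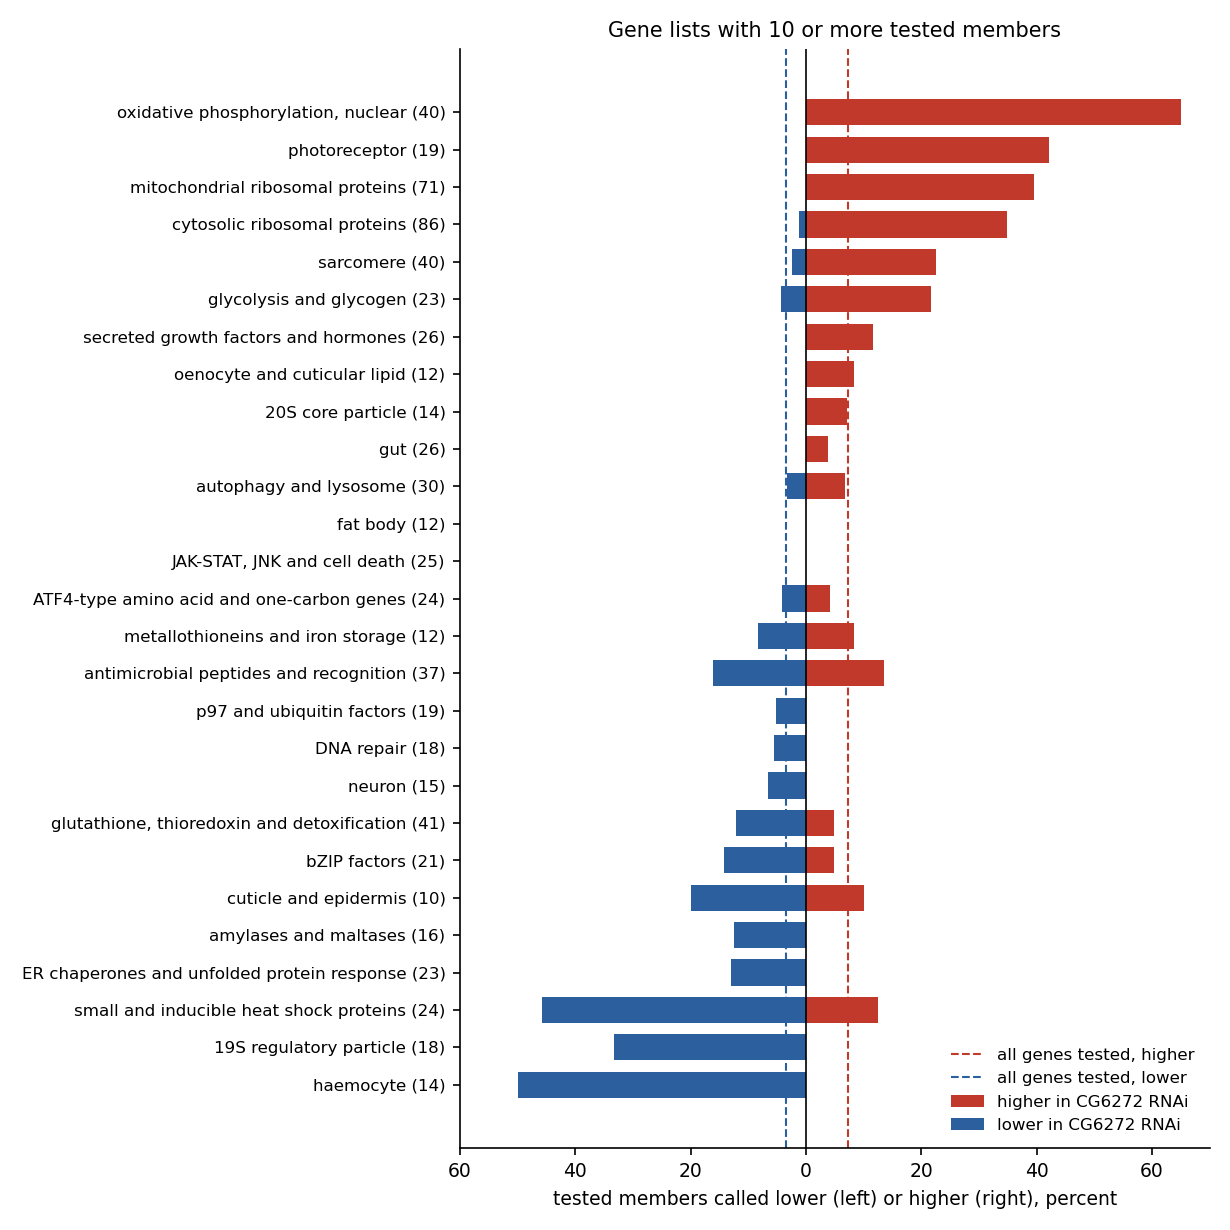
Share of tested members called higher (right) and lower (left) in CG6272 RNAi than in the proteasome mean, for gene lists with 10 or more tested members (number in brackets); dashed lines mark the shares over all genes, 7.19% and 3.47%. Oxidative phosphorylation had the largest share of higher members (26 of 40) and haemocyte markers the largest share of lower ones (7 of 14) among these lists with all 9 libraries; without CG6272 replicate 2 the 19S list had 11 of 18 lower, against 8 of 14 haemocyte markers, and with the length trend removed 13 of 18, against 3 of 14.

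Immune genes were called in both directions. Of 37 tested 5 were higher and 6 lower (13.5% and 16.2%), against 7.19% and 3.47% of all genes. Without CG6272 replicate 2 the counts were 5 and 5, where 7.66% and 5.82% of all genes were called. With the length trend removed they were 5 and 11 of 35, against 10.1% and 8.25% of all genes. The higher ones were IM1, IM2, IM3, IM23 and dro4. The IM genes encode Bomanins, short secreted peptides that in flies act downstream of Toll, and dro4 encodes a Drosomycin-like peptide. IM2 had 677, 1029 and 806 CPM in CG6272 RNAi, against 298, 387 and 445 CPM in ProsB1 RNAi, 486, 458 and 514 CPM in ProsB5 RNAi and 478 to 623 CPM in controls (0.97 ± 0.15, adjusted p = 0.0144). Its CG6272 libraries lay above all others. IM3 had 343, 491 and 382 CPM in CG6272 RNAi, against 155, 193 and 214 CPM in ProsB1 RNAi, 229.7, 249.8 and 284 CPM in ProsB5 RNAi and 214 to 333 CPM in controls (0.89 ± 0.14, adjusted p = 0.0144). CG15067, named BomBc2 in the reference annotation, was outside the list but among the largest rises, with 587, 908 and 701 CPM in CG6272 RNAi, against 249.6, 266 and 267 CPM in ProsB1 RNAi, 325, 321 and 339 CPM in ProsB5 RNAi and 291 to 371 CPM in controls (1.32 ± 0.12, adjusted p = 0.00278). IM23 was not called without CG6272 replicate 2 (adjusted p = 0.0909).

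The 6 lower genes were pirk, Dpt, Drs, PGRP-SC1a, PGRP-SC2 and PGRP-SD. Pirk and the secreted amidases PGRP-SC1a and PGRP-SC2 are known to damp Imd signalling, Dpt encodes the antibacterial peptide Diptericin, Drs the antifungal peptide Drosomycin, and PGRP-SD a recognition protein. The pirk gene had 16.6, 14.0 and 22.3 CPM in CG6272 RNAi, against 63.6, 63.7 and 70.6 CPM in ProsB1 RNAi, 60.6, 51.0 and 65.6 CPM in ProsB5 RNAi and 8.30 to 24.4 CPM in controls (-1.82 ± 0.16, adjusted p = 0.00278). Its CG6272 libraries thus lay within the control range and well below the proteasome libraries. Dpt had 6.05, 5.25 and 4.59 CPM in CG6272 RNAi, against 15.8, 26 and 24.1 CPM in ProsB1 RNAi, 28.7, 12.8 and 14.7 CPM in ProsB5 RNAi and 2.24 to 9.59 CPM in controls (-1.94 ± 0.29, adjusted p = 0.0131). PGRP-SC1a had 2.33, 2.76 and 2.37 CPM in CG6272 RNAi, against 19.7, 7.76 and 12.6 CPM in ProsB1 RNAi, 7.51, 7.86 and 4.35 CPM in ProsB5 RNAi and 0 to 0.413 CPM in controls (-1.92 ± 0.31, adjusted p = 0.0155). These 3 genes passed against each proteasome group, whereas Drs, PGRP-SC2 and PGRP-SD were not called without CG6272 replicate 2 (adjusted p = 0.0651, 0.0724 and 0.057). PGRP-SC1a and its neighbour PGRP-SC1b are close copies whose reads are hard to tell apart.

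Haemocytes are the fly's blood cells, and 7 of their 14 tested markers were lower and 0 higher, against 3.47% and 7.19% of all genes. Without CG6272 replicate 2 the counts were 8 and 0, where 5.82% of all genes were lower. With the length trend removed they were 3 and 0, where 8.25% of all genes were lower. The median log2 fold change was -0.36 (-0.41 without that library, -0.19 with the length trend removed). In bulk tissue, fewer cells of a type and less RNA per cell cannot be told apart. Hml, which encodes hemolectin, had 163, 133 and 134 CPM in CG6272 RNAi, against 226, 266 and 252 CPM in ProsB1 RNAi, 337, 351 and 337 CPM in ProsB5 RNAi and 179 to 236 CPM in controls (-1.02 ± 0.10, adjusted p = 0.00306). Its 3 CG6272 libraries were the lowest of the 15. The scavenger receptor gene crq had 133, 107 and 136 CPM in CG6272 RNAi, against 182, 172 and 183 CPM in ProsB1 RNAi, 188, 177 and 179 CPM in ProsB5 RNAi and 147 to 169 CPM in controls (-0.53 ± 0.09, adjusted p = 0.0176). The phagocytic receptor genes eater and nimC1 (-0.66 and -0.58), the peroxidasin gene Pxn (-0.38) and the collagen IV genes Cg25C and vkg (-0.47 and -0.41) were also lower. The summed markers ranged from 673 to 726 CPM in CG6272 libraries, 876 to 1120 CPM in proteasome libraries and 806 to 933 CPM in controls. Haemocytes also express immune genes, and their part in the immune values was not tested.

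**Figure D5:**
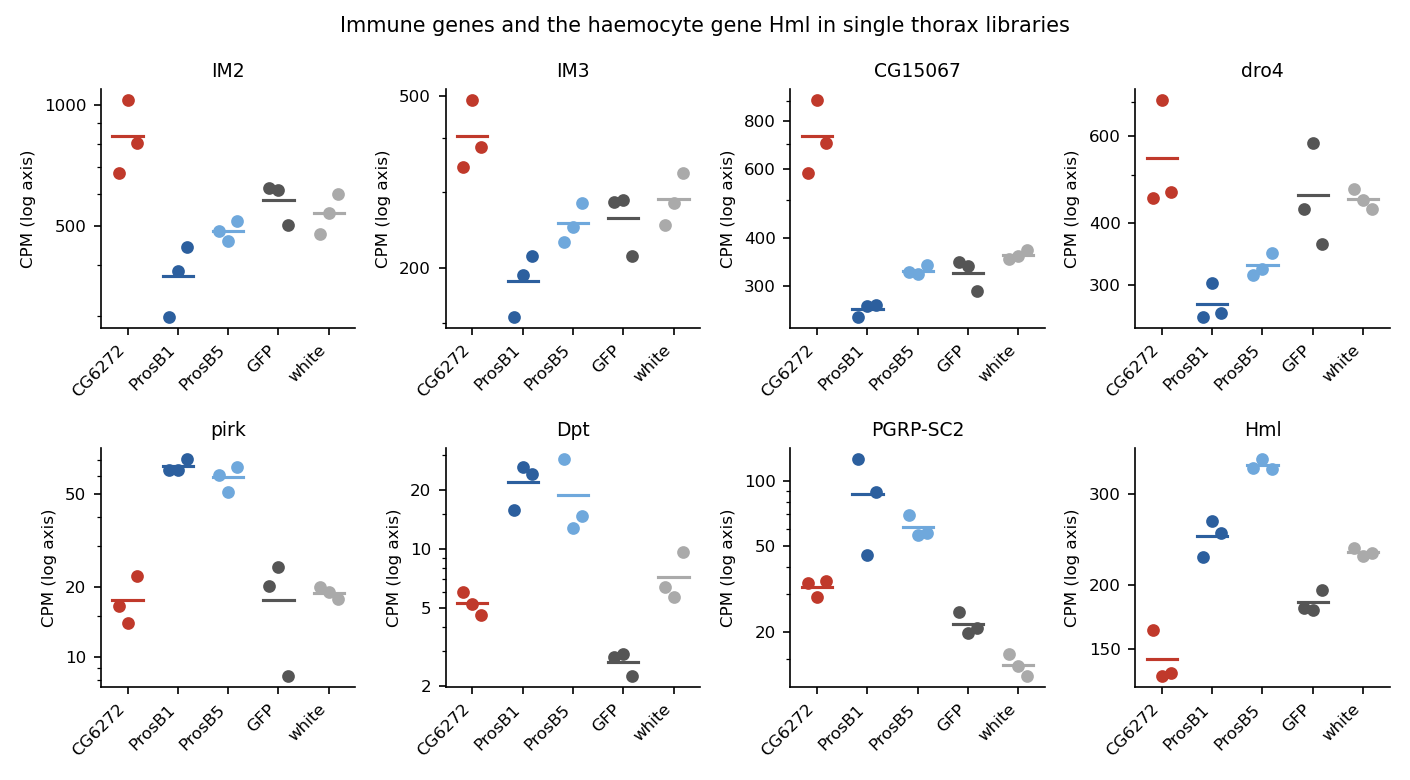
CPM of 7 immune genes and the haemocyte gene Hml in each of 15 thorax libraries, on log axes that differ between panels; points are libraries, short lines are means of 3 libraries, with CG6272 RNAi on the left and the GFP and white RNAi controls on the right. The Bomanin genes IM2, IM3 and CG15067 were highest in the CG6272 libraries, and pirk was at 14.0 to 22.3 CPM there, against 51.0 to 70.6 CPM in proteasome libraries.

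Other tissue markers also moved. Of 19 tested photoreceptor markers 8 were higher and 0 lower, against 7.19% and 3.47% of all genes (5 and 0 without CG6272 replicate 2). The opsin gene ninaE had 18.1, 17.8 and 19 CPM in CG6272 RNAi, against 0.215, 2.86 and 6.11 CPM in ProsB1 RNAi, 0.321, 4.73 and 4.01 CPM in ProsB5 RNAi and 0.730 to 397 CPM in controls (2.58 ± 0.70, adjusted p = 0.0487). Its call was lost without CG6272 replicate 2 (adjusted p = 0.0687). Summed photoreceptor markers were 792, 477 and 870 CPM in CG6272 replicates 1, 2 and 3, 769 to 898 CPM in proteasome libraries and 877 to 1918 CPM in controls. Only CG6272 replicate 2 thus lay below the proteasome libraries. The sum holds long genes such as rdgA (13764 bases of exons), which had 175, 99.9 and 194 CPM in CG6272 replicates 1, 2 and 3. Accessory gland markers, all untested, summed to 0.330 to 0.520 CPM in CG6272 libraries and 0.255 to 0.917 CPM in 5 proteasome libraries, but to 316 CPM in ProsB5 replicate 1, and reached 206 CPM in controls. Oenocyte and cuticular lipid genes summed to 10192 to 12976 CPM in CG6272 libraries, 7488 to 10790 CPM in proteasome libraries and 21593 to 30971 CPM in controls. There desat1, a fatty acid desaturase gene, was higher (0.51), and Cyp4g1 was not called (0.49). Of the most abundant genes of the fat body (Rfabg and Lsp2), gut (alphaTry and betaTry), neuron (cpx and Syt1), photoreceptor (rdgA and Galpha49B) and testis lists (bol and mia) none was called. Of 6 tested testis markers 1 was lower and 5 had log2 fold changes below 0, with a median of -0.85. Their list summed to 163, 62.3 and 171 CPM in CG6272 replicates 1, 2 and 3, 142 to 186 CPM in proteasome libraries and 216 to 257 CPM in controls. Here too only CG6272 replicate 2 lay below the proteasome libraries. Of these sums bol alone, with 8169 bases of exons, gave 155, 51.3 and 161 CPM in CG6272 replicates 1, 2 and 3. Without replicate 2 the log2 fold change of bol was 0.0283. The log2 fold changes of those most abundant genes ran from -0.62 for Lsp2 to 0.02 for mia. In the cuticle list the dopamine synthesis gene ple was lower (-0.59, with an adjusted p of 0.0774 without CG6272 replicate 2) and Ddc was higher (0.26). The log2 fold change of ple was -0.88 against ProsB1 RNAi and -0.29 against ProsB5 RNAi. The part of these tissues in other results was not tested.

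Of 41 tested detoxification genes 2 were higher and 5 lower (4.88% and 12.2%), against 7.19% and 3.47% of all genes. Without CG6272 replicate 2 the counts were 2 and 8, where 5.82% of all genes were lower. With the length trend removed they were 2 and 13 of 40, where 8.25% of all genes were lower. The higher ones were Cyp6a2 and Sod2, and GstD2, GstD5, GstE5, GstE7 and Cat were lower. Cyp6a2, a cytochrome P450 gene, had 106, 118 and 121 CPM in CG6272 RNAi, against 35.3, 37.3 and 38.1 CPM in ProsB1 RNAi and 43.6, 42.8 and 48.1 CPM in ProsB5 RNAi (1.5 ± 0.07, adjusted p = 9.78e-05). Its controls differed by line, with 33.3, 43.6 and 29.5 CPM in GFP RNAi and 152, 155 and 154 CPM in white RNAi, so a difference of this size also lay between the controls. Sod2, the mitochondrial superoxide dismutase gene, had a log2 fold change of 0.68 and Cat, the catalase gene, of -0.31. GstD5 had 2.74, 1.86 and 5.93 CPM in CG6272 RNAi, against 8.65, 7.91 and 9.08 CPM in ProsB1 RNAi, 21.6, 18.5 and 11.6 CPM in ProsB5 RNAi and 0.551 to 8.28 CPM in controls (-1.76 ± 0.35, adjusted p = 0.0233).

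The largest single rise showed the same split between control lines. Gr43a, a fructose receptor gene, had 4.87, 10.6 and 4.80 CPM in CG6272 RNAi, against 0.0308, 0.113 and 0.111 CPM in ProsB1 RNAi and 0.175, 0.138 and 0.145 CPM in ProsB5 RNAi (5.83 ± 0.35, adjusted p = 0.000259). It was at 0.0952, 0.0995 and 0.138 CPM in GFP RNAi and at 3.89, 5.48 and 6.15 CPM in white RNAi. CG9377, at 110.2, 124 and 102 CPM in CG6272 RNAi and 41.2 to 61.6 CPM in proteasome RNAi, was at 79.9 to 99.3 CPM in GFP RNAi and 21.0 to 29.4 CPM in white RNAi. Porin2, a mitochondrial porin-family gene, had 6.52, 7.53 and 4.06 CPM in CG6272 RNAi, against 2.74, 2.78 and 2.61 CPM in ProsB1 RNAi, 2.07, 1.30 and 1.89 CPM in ProsB5 RNAi and 2.25 to 4.43 CPM in controls (1.46 ± 0.20, adjusted p = 0.0106). The remaining large rises were CG3857 (1.24), CR43683 (1.16) and CG8446 (1.13). CR43683 is antisense to CG5850, Gr43a overlaps Dhx15 on the other strand and Cyp6a2 overlaps Epac, and strand use in the counting is not given in the sources used here.

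CG42255, the cubilin-like gene Cubn2 of the reference annotation, was the largest fall outside the heat shock genes under the naming rule. It had 3.88, 3.33 and 2.54 CPM in CG6272 RNAi, against 11.1, 13.6 and 14.2 CPM in ProsB1 RNAi, 12.6, 23.5 and 13.8 CPM in ProsB5 RNAi and 13.1 to 27.0 CPM in controls (-2.18 ± 0.24, adjusted p = 0.00483). The proteasome libraries overlapped the controls here, and the CG6272 libraries lay below both.

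Several lists had few called members, though not always a smaller share than all genes (7.19% higher, 3.47% lower). The shares called higher and lower were 11.5% and 0% for secreted growth factors and hormones and 12.5% and 0% for clock genes. They were 8.33% and 8.33% for metallothionein and iron genes and 0% and 5.56% for DNA repair genes. For ATF4-type genes they were 4.17% and 4.17%, and for autophagy and lysosome genes 6.67% and 3.33%. Of 24 ATF4-type amino acid and one-carbon genes 1 was higher, CG5840 (0.35), and 1 lower, the cystathionine gamma-lyase gene Eip55E (-0.73; adjusted p = 0.0512 without CG6272 replicate 2). Of 12 metallothionein and iron genes 1 was higher and 1 lower (1 and 2 without CG6272 replicate 2). MtnB had 35.2, 30.1 and 37.7 CPM in CG6272 RNAi, against 29.1, 12.1 and 25.4 CPM in ProsB1 RNAi, 13.6, 15 and 11.2 CPM in ProsB5 RNAi and 0.298 to 4.79 CPM in controls (1.00 ± 0.23, adjusted p = 0.0334), and the ferritin gene Fer1HCH had a log2 fold change of -0.39. Among 26 secreted growth factors and hormone genes 3 were higher: the activin-type ligand gene daw (0.53), the EGF ligand gene spi (0.25) and GRHR, the adipokinetic hormone receptor gene AkhR (0.47; adjusted p = 0.0657 without CG6272 replicate 2). Of 30 autophagy and lysosome genes 2 were higher, Atg12 and CG31414, and 1 lower, Vha26 (1 and 2 without CG6272 replicate 2, where CG31414 was not called). CG31414 had a log2 fold change of 0.63 against ProsB1 RNAi and 0.06 against ProsB5 RNAi, and its CG6272 and proteasome libraries overlapped. Of 18 DNA repair genes 1 was lower, RnrL, and of 8 clock genes 1 was higher, per (2 higher and 1 lower without CG6272 replicate 2). None of 25 JAK-STAT, JNK and cell death genes was called by edgeR's test with TMM scaling. With upper quartile scaling 1 was higher and 0 lower, and with the length trend removed 2 were higher and 2 lower of 24. Stat92E, the most abundant of the 25, had a log2 fold change of -0.25 ± 0.12 with TMM scaling (adjusted p = 0.178). Of 6 tested marker genes of fly stocks none was called with TMM scaling. With upper quartile scaling 1 was higher, and with the length trend removed 1 was. The most abundant, sev, had a log2 fold change of -0.23 ± 0.09 with TMM scaling (adjusted p = 0.124).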

How the data were processed

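RNA was measured in thoraces with TruSeq stranded mRNA libraries on a HiSeq, per the labels' protocols. The authors deposited raw read counts per gene. STAR (version not stated) and the genome build BDGP5 are named in the submitters' processing notes. The counting tool, the gene annotation and whether strand was used were not given in those sources. The 5 summary rows (19.38 to 31.25% of reads) were left out.

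The 9 libraries of the 3 groups were fitted with edgeR 4.0.16 in R 4.3.3 (quasi-likelihood F test, TMM scaling, filterByExpr with a minimum count of 10 and a minimum total of 15), which kept 10658 of 15682 genes. P-values were adjusted by Benjamini and Hochberg's method over all of these genes, and a log2 fold change, its standard error and the sign rule follow from that fit. CPM shown are counts over TMM-scaled library sizes of all 18 thorax libraries. DESeq2 1.42.0, other scalings and filters, a replicate block, thinning to equal depth and leaving out each library were alternatives; a length trend per library and the fit of all thoraces but CG6272 replicate 2 were chosen after seeing the data. Exonic lengths came from a later annotation (BDGP6) matched by gene name. P-values set a group difference against the spread between libraries labelled as biological replicates. They cannot tell genotype from library batch.

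Members and gene lists were chosen with earlier results of these data known. The genes named were CG6272, Prosbeta1, Prosbeta5 and Amyrel, the 8 largest rises and falls called against each proteasome group without overlap and with at least 5 CPM, up to 3 called members of a pathway list by adjusted p (all where 5 or fewer were called), the 2 most abundant genes of a marker list and the most abundant gene of a list with none called. The other members named from the heat shock, immune, detoxification, glycolysis and haemocyte lists, ninaE and RpS10a were chosen after their values were seen.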

Additional observations from a re-analysis of the deposited data

How the results depend on the processing

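The counts of genes (766 higher, 370 lower, 103 higher and 59 lower against each proteasome group) depended on the fit. DESeq2 gave 1149, 955, 447 and 290, all 18 thorax libraries 1681, 1417, 772 and 589, no low-count filter 579, 234, 67 and 44, and upper quartile scaling 1169, 243, 129 and 42. Requiring an absolute log2 fold change of 1 gave 62, 71, 23 and 29. ProsB1 RNAi alone as the comparison gave 212 higher and 104 lower genes, and ProsB5 RNAi alone 339 and 250. The length trend as an offset gave 1062, 867, 394 and 265, and all thoraces but CG6272 replicate 2 gave 1055, 981, 459 and 455, both chosen after seeing the data. Leaving out 1 library gave 76 to 1288, 61 to 794, 5 to 485 and 3 to 258 genes. The cause was not tested. RLE scaling, the 1 CPM filter and thinning to the smallest library kept each count within 1.5 times.

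The labels state no pairing of libraries by replicate number. Same-numbered deviations from the group means correlated at 0.0376, 0.0512 and 0.158 between CG6272 and ProsB1 RNAi. Between CG6272 and ProsB5 RNAi they correlated at -0.0886, 0.0402 and -0.0972. Not every library correlated best with its own number, but deviations within groups of 3 libraries cannot exclude a pairing. With the replicate block 429, 252, 29 and 53 genes were called.

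Without ProsB1 replicate 3, 43 of the named genes were no longer called, and without ProsB1 replicate 1, 41; without CG6272 replicate 2 it was 6. Signs reversed for Prosbeta1 (-0.0155 with the length offset, -0.52 against ProsB5 RNAi) and, among genes that were not called, for sev (0.12), rdgA (0.018), Rfabg (0.15), cpx (0.26, adjusted p = 0.0216) and Syt1 (0.14) with the length offset, where cpx thus passed in the other direction. With all thoraces but CG6272 replicate 2, bol was at 0.0326, cpx at 0.13, Syt1 at 0.22 and mia at -0.00713. Leaving out 1 library gave -0.58 to 0.0283 for bol, -0.13 to 0.17 for mia, -0.62 to 0.0422 for betaTry, -0.27 to 0.13 for cpx and -0.31 to 0.21 for Syt1. Against 1 proteasome group, mia was at -0.0454 (ProsB5 RNAi) and Lsp2 at 0.0414 (ProsB1 RNAi). Values near the lowest levels, such as those of Rpt6R and RpS10a, rest on few reads.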

Other observations

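Some genes outside the lists, chosen after their values were seen, passed against each proteasome group; they stand for no list. CG32702, the cubilin gene of the reference annotation, had 24.9, 15.5 and 22.4 CPM in CG6272 RNAi, against 46.4, 40.2 and 46.5 CPM in ProsB1 RNAi, 46.1, 58.0 and 44.8 CPM in ProsB5 RNAi and 43.5 to 57.8 CPM in controls (-1.16 ± 0.16, adjusted p = 0.0104). CG11592, its amnionless partner, had 1.53, 1.62 and 1.14 CPM in CG6272 RNAi, against 3.78, 4.85 and 4.94 CPM in ProsB1 RNAi, 4.47, 6.56 and 5.19 CPM in ProsB5 RNAi and 4.80 to 6.75 CPM in controls (-1.80 ± 0.18, adjusted p = 0.00332). With CG42255 these are 3 genes of the cubilin and amnionless type, and in each the CG6272 libraries lay below all control libraries. LanB1, a laminin subunit gene, had 34.0, 30.5 and 36.6 CPM in CG6272 RNAi, against 48.0, 49.1 and 51.0 CPM in ProsB1 RNAi, 64.3, 63.6 and 60.2 CPM in ProsB5 RNAi and 46.5 to 57.7 CPM in controls (-0.72 ± 0.08, adjusted p = 0.00435). LanA (-0.82) and Ppn, the papilin gene (-0.69), also had lower values.

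B52, an SR protein gene, had 229.5, 216 and 226 CPM in CG6272 RNAi, against 167, 174 and 166 CPM in ProsB1 RNAi, 175, 176 and 177 CPM in ProsB5 RNAi and 169 to 185 CPM in controls (0.38 ± 0.06, adjusted p = 0.0157). SC35 (0.57) was also called. Lk, the leucokinin neuropeptide gene, had 39.2, 58.1 and 38.8 CPM in CG6272 RNAi, against 24.4, 25.8 and 23.2 CPM in ProsB1 RNAi, 25.9, 24.2 and 26 CPM in ProsB5 RNAi and 20.8 to 27.4 CPM in controls (0.86 ± 0.13, adjusted p = 0.0127). Arc1, whose product forms capsid-like particles, had 394, 516 and 505 CPM in CG6272 RNAi, against 1072, 2061 and 1622 CPM in ProsB1 RNAi, 2319.8, 3795 and 2460.4 CPM in ProsB5 RNAi and 542 to 2068 CPM in controls (-2.17 ± 0.25, adjusted p = 0.00657).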
